A study of Mus musculus with 8 samples.

Results

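The cytosolic nucleic acid sensing genes described here are Ddx58 (RIG-I), Ifih1 (MDA5), Dhx58 (LGP2), Mavs, Cgas, Sting1, Tbk1, Ikbke and Zbp1. They were listed by name and found by matching their Entrez Gene IDs in the table of read counts. All 9 were found among the 27179 gene IDs of the table, and all 9 passed the filter on low counts that left 14238 genes to test. RNA was sequenced from dendritic cells (DC) sorted from the spleens of C57BL/6 mice with leukemia, which the study's title names as AML (acute myeloid leukemia). Plasmacytoid DC (pDC) and conventional DC (cDC) were taken after 2 days of panobinostat, a drug that blocks histone deacetylases, or of vehicle, which makes 4 groups. There were 2 biological replicates in a group by the study's own account, each a pool of 3 to 6 animals. Every group, vehicle included, came from leukemic animals, so none shows these genes in DC of a healthy spleen. The sources used here give no sorting gates, animal ages or dose. The protocol text speaks of sorted leukemia cells, whereas titles, source names and cell type labels give DC.

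These genes form the relays by which a cell detects viral or misplaced nucleic acid in its cytosol. RIG-I and MDA5 are helicases that bind double-stranded RNA and signal through their caspase recruitment domains to MAVS on the mitochondrial surface, while LGP2, a related helicase without those domains, modulates both. The enzyme cGAS binds DNA and makes a cyclic dinucleotide that activates STING at the endoplasmic reticulum. Both relays meet at the kinases TBK1 and IKK epsilon (gene Ikbke), which phosphorylate the transcription factors IRF3 and IRF7 and so start interferon transcription. ZBP1 binds left-handed Z-form RNA and DNA and signals to RIPK3, a kinase of necroptosis. Several of the genes, Ddx58, Ifih1, Dhx58 and Zbp1 among them, are known as interferon-stimulated genes. pDC are best known for sensing nucleic acid in endosomes with toll-like receptors 7 and 9 rather than in the cytosol.

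Total counts ran from 13124861 to 20657429 per library. The second replicate of panobinostat pDC stood apart: it had the lowest total, 10745 genes with at least 1 count against 14927 to 19950 in the other 7, and its log2 CPM correlated across genes with that of replicate 1 at r = 0.801, where the other 3 groups gave 0.965 to 0.973. CPM here is the read count on a per-million scale after scaling by trimmed mean of M values (TMM). The labels were checked against 12 pDC and 12 cDC marker genes. The pDC markers summed to 15034 to 27768 CPM in the pDC libraries and to 198 to 288 CPM in the cDC libraries, and none of the 12 was at 0 in any group. The cDC markers summed to 20074 to 30901 CPM in cDC and to 8051 to 20561 CPM in pDC. The 8 markers of red pulp macrophages, the iron-recycling phagocytes of the spleen, summed to 310 to 492 CPM in cDC and to 0 to 37.0 CPM in pDC, with Cd5l at 0 in panobinostat pDC. Of the lists for natural killer (NK) cells and for monocytes and neutrophils, summed levels in pDC were 179 to 274 and 415 to 423 CPM with vehicle and 591 to 1319 and 849 to 995 CPM with panobinostat. In those panobinostat libraries the NK gene Eomes and the myeloid genes F13a1, S100a9 and Mmp8 were at 0. S100a9 and Mmp8 were at 0 in vehicle pDC too. B cell markers reached 609 CPM at most, in vehicle cDC, and T cell markers 878 CPM at most, in vehicle pDC. Markers of myeloid progenitors or leukemia reached 410 CPM at most, in panobinostat cDC. In bulk RNA, fewer cells of a type and less RNA per cell cannot be told apart.

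Start-site sequences were looked up because several members are known interferon targets and because Cgas and Ddx58 differed most between vehicle pDC and cDC. RefSeq windows (build GRCm38.p6) from 250 bases before to 50 after the start site were at hand for 6 of the 9 genes: Ddx58, Ifih1, Mavs, Cgas, Tbk1 and Ikbke. The interferon-stimulated response element, searched on both strands as GAAA, any 2 bases and GAAA again, was found in Ddx58 and Ifih1, and in 3.44% of all 32851 windows of that length. In both genes it lay just after the start site, at bases 3 to 12 of Ddx58 and 33 to 42 of Ifih1, counted from the first transcribed base. The stretches around it, with the element in capitals, are Ddx58 on chr4:40239804-40239833 and Ifih1 on chr2:62646206-62646233, both read on the minus strand.
Ddx58 element: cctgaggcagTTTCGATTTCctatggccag
Ifih1 element: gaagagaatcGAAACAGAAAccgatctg
The 250 bases before the start follow for Cgas (chr9:78443238-78443487, minus strand) and Ddx58 (chr4:40239826-40240075, minus strand). Capitals in Cgas mark a match to a kappa-B-like motif, searched on both strands as GGGA, any 4 bases and CC, which 20.7% of all windows hold.
Cgas upstream: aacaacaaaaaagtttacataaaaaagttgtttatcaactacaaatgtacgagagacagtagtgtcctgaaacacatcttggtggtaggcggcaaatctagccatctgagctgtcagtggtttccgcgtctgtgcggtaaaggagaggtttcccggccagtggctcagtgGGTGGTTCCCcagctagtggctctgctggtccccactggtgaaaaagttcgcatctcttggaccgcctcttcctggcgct
Ddx58 upstream: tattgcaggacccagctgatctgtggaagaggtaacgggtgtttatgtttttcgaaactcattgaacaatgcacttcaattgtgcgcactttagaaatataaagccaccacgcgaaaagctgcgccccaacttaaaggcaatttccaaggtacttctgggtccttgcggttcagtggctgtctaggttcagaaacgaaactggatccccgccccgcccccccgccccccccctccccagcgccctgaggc
A STAT site, searched on both strands as TTCNNNGAA, was found in none of the 6 windows and in 8.3% of all windows. These matches describe the letters only. On that build, Ddx58 (Entrez Gene 230073) spans chromosome 4 from 40203777 to 40239825, Ifih1 (71586) chromosome 2 from 62595618 to 62646255 and Dhx58 (80861) chromosome 11 from 100694884 to 100704271. Mavs (228607) lies on chromosome 2 from 131234063 to 131248025, Cgas (214763) on chromosome 9 from 78430518 to 78443237 and Tbk1 (56480) on chromosome 10 from 121546455 to 121586794. Ikbke (56489) lies on chromosome 1 from 131254600 to 131279601 and Zbp1 (58203) on chromosome 2 from 173206612 to 173218959. Exons of genes on the opposite strand overlapped 4.31% of the exon bases of Dhx58, 4.87% of those of Cgas and, from a pair of genes, 0.721% and 1.76% of those of Ikbke. Whether counting used strand is not given in the sources used here, so a few reads of those 3 genes may belong to their partners.

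Levels of different genes were compared as CPM per kilobase of exon sequence. The adaptor of the DNA relay, Sting1, was the most abundant of the 9 transcripts in each of the 4 groups, and its libraries did not overlap those of the next gene in any group. It stood at 83.2 ± 2.99 CPM per kb in vehicle pDC and 39.7 ± 3.30 in vehicle cDC (SD, n = 2), above 95.2% and 90.3% of the 12767 tested genes with a known exon length. Its upstream enzyme Cgas was the least abundant of the 9 in both pDC groups, at 0.301 ± 0.167 CPM per kb with vehicle (SD, n = 2), where the median tested gene stood at 4.04. In vehicle cDC Cgas stood at 5.27 ± 0.0184 CPM per kb (SD, n = 2), above the median tested gene at 4.39, and the least abundant member was Ikbke at 0.595 ± 0.378.

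The remaining order was close in most places. In vehicle pDC it ran Sting1, Mavs, Dhx58, Tbk1, Zbp1, Ifih1, Ikbke, Ddx58 and Cgas, and the libraries of neighbours overlapped from Dhx58 to Ifih1 and between Ddx58 and Cgas. In vehicle cDC it ran Sting1, Dhx58, Mavs, Ifih1, Zbp1, Tbk1, Cgas, Ddx58 and Ikbke, with overlap from Dhx58 to Tbk1 and between Cgas and Ddx58. With panobinostat Zbp1 came after Sting1 and Dhx58 in both cell types, at 21.3 ± 7.02 CPM per kb in pDC and 22.6 ± 5.30 in cDC (SD, n = 2). Among the 3 RNA helicase genes, Dhx58 stood highest and Ddx58 lowest per kilobase in every group mean. Between the related kinases, Tbk1 stood above Ikbke in all 8 libraries, at 10.4 against 1.34 CPM per kb in vehicle pDC and at 8.91 against 0.595 in vehicle cDC.

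**Figure D1:**
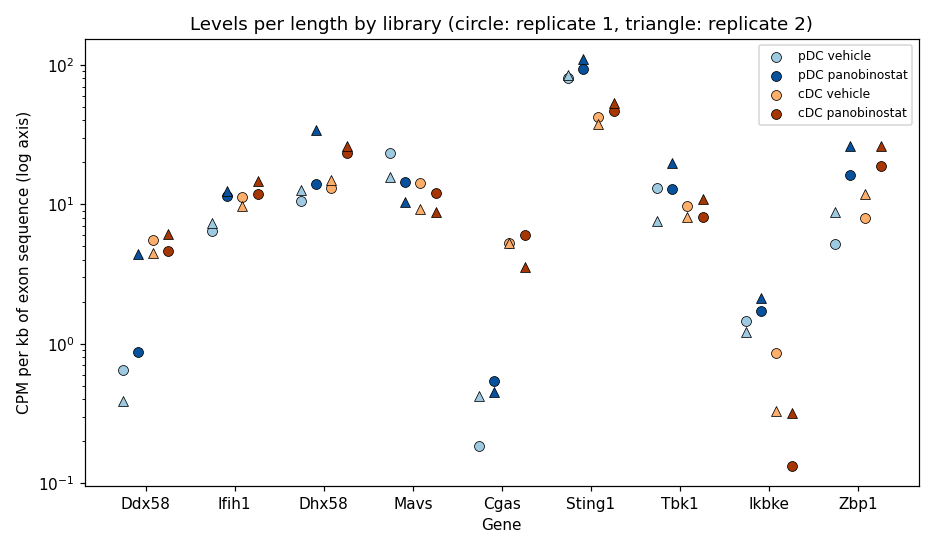
Level of each gene in each library as CPM per kilobase of exon sequence on a log axis (circles: replicate 1, triangles: replicate 2; colours: the 4 groups). Sting1 is the most abundant gene in every library, and Cgas lies below 1 CPM per kb in the 4 pDC libraries and above 3 in the 4 cDC libraries.

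The first comparison set pDC against cDC from vehicle-treated mice. The DNA relay differed at both of its first steps and in opposite directions: Cgas was lower and Sting1 higher in pDC. The pDC libraries also lay far below the cDC libraries for Ddx58, which missed the threshold. A gene is called here when its adjusted p is below 0.05 in edgeR's quasi-likelihood test, fitted to all 8 libraries and adjusted by Benjamini-Hochberg over 14238 genes. Of the 9 members 2 were called, 1 higher and 1 lower, where 9.73% of all tested genes were called, 5.01% higher and 4.71% lower. Of the members 4 had an unadjusted p below 0.05, as had 24.5% of all tested genes. The 2 pDC libraries lay wholly above the 2 cDC libraries for 3 members and wholly below for 4, which 35.1% and 35.5% of all tested genes did.

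Cgas, the DNA sensor itself, had 15 and 32 reads in the vehicle pDC libraries, or 0.757 and 1.73 CPM, and 468 and 470 reads in the vehicle cDC libraries, or 21.8 and 21.7 CPM. Both vehicle cDC libraries lay far above both vehicle pDC libraries. The log2 fold change of pDC against cDC was -4.12 ± 0.67 (SE; n = 2 per group; edgeR adjusted p = 0.0169). Sting1 stood at 222 and 234 CPM in vehicle pDC and at 115 and 103 CPM in vehicle cDC. The groups did not overlap, and the log2 fold change was 1.07 ± 0.17 (SE; n = 2; edgeR adjusted p = 0.0171). Neither direction changed under the 16 alternatives, where the log2 fold change ran from -4.87 to -3.64 for Cgas and from 0.93 to 1.16 for Sting1. Both calls were lost without vehicle pDC replicate 1 or 2, vehicle cDC replicate 1 or 2, or panobinostat cDC replicate 1 or 2 (edgeR adjusted p of 0.0606 to 0.118 for Cgas and 0.0598 to 0.158 for Sting1). Without panobinostat pDC replicate 2 they were 0.00175 and 0.00398. Summed markers of red pulp macrophages and of B cells lay in the direction of Cgas. B cell markers were at 120 to 199 CPM in vehicle pDC and 239 to 609 CPM in vehicle cDC. The 9 markers of myeloid progenitors or leukemia summed to 67.6 to 69.5 CPM in vehicle pDC and 266 to 357 CPM in vehicle cDC. These sums also lay in the direction of Cgas. The mean log2 of CPM plus 1 of these markers was close with vehicle, at 1.82 in pDC and 1.90 in cDC. With panobinostat they summed to 29.3 to 67.7 CPM in pDC and 405 to 410 CPM in cDC. The mean log2 was then 1.47 in pDC and 2.26 in cDC. T cell markers lay in the direction of Sting1, at 394 to 878 CPM in vehicle pDC and 26.1 to 43.0 CPM in vehicle cDC. Their mean log2 of CPM plus 1 lay closer, at 2.49 in vehicle pDC and 1.88 in vehicle cDC. The part of these markers in the differences was not tested.

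Of the RNA receptors, Ddx58 stood at 4.59 and 2.76 CPM in vehicle pDC and at 38.8 and 31.7 CPM in vehicle cDC. The groups lay far apart, with a log2 fold change of -3.26 ± 0.81 (SE; n = 2; edgeR adjusted p = 0.0582). Leaving out panobinostat pDC replicate 1 or 2, which are not part of this comparison but enter the shared estimate of spread, gave edgeR adjusted p values of 0.000894 and 0.000854. Ifih1 stood at 52.7 and 60.3 CPM in pDC and 92.6 and 79.8 CPM in cDC, with a log2 fold change of -0.61 ± 0.20 (SE; n = 2; edgeR adjusted p = 0.124). It too passed without either panobinostat pDC library (0.0391 without replicate 1, 0.0367 without replicate 2). Those fits called 37.2% and 36.1% of all tested genes. Dhx58 stood at 34.6 and 41.6 CPM in pDC and at 43.0 and 48.8 CPM in cDC, and its log2 fold change of -0.27 ± 0.42 (SE, n = 2) did not pass. All 3 helicase genes had their vehicle pDC libraries wholly below their vehicle cDC libraries, as had 35.5% of all tested genes. The amounts differed widely, and none of the 3 helicase genes was called in the fit of all 8 libraries. Mavs, the adaptor they share, lay the other way, at 77.5 and 52.6 CPM in pDC and 47.2 and 30.9 CPM in cDC, with a log2 fold change of 0.74 ± 0.37 (SE; n = 2; edgeR adjusted p = 0.302).

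The kinases and Zbp1 were not called in vehicle. Tbk1 stood at 51.4 and 29.8 CPM in pDC and at 38.0 and 31.6 CPM in cDC, and the groups overlapped. Ikbke was scarce in both, at 13.2 and 11.0 CPM in pDC and 7.78 and 2.95 CPM in cDC, with no overlap and a log2 fold change of 1.17 ± 0.72 (SE; n = 2; edgeR adjusted p = 0.408). Zbp1, the sensor of Z-form nucleic acid, stood at 18.4 and 30.9 CPM in pDC and at 28.3 and 41.6 CPM in cDC, which overlapped.

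**Figure D2:**
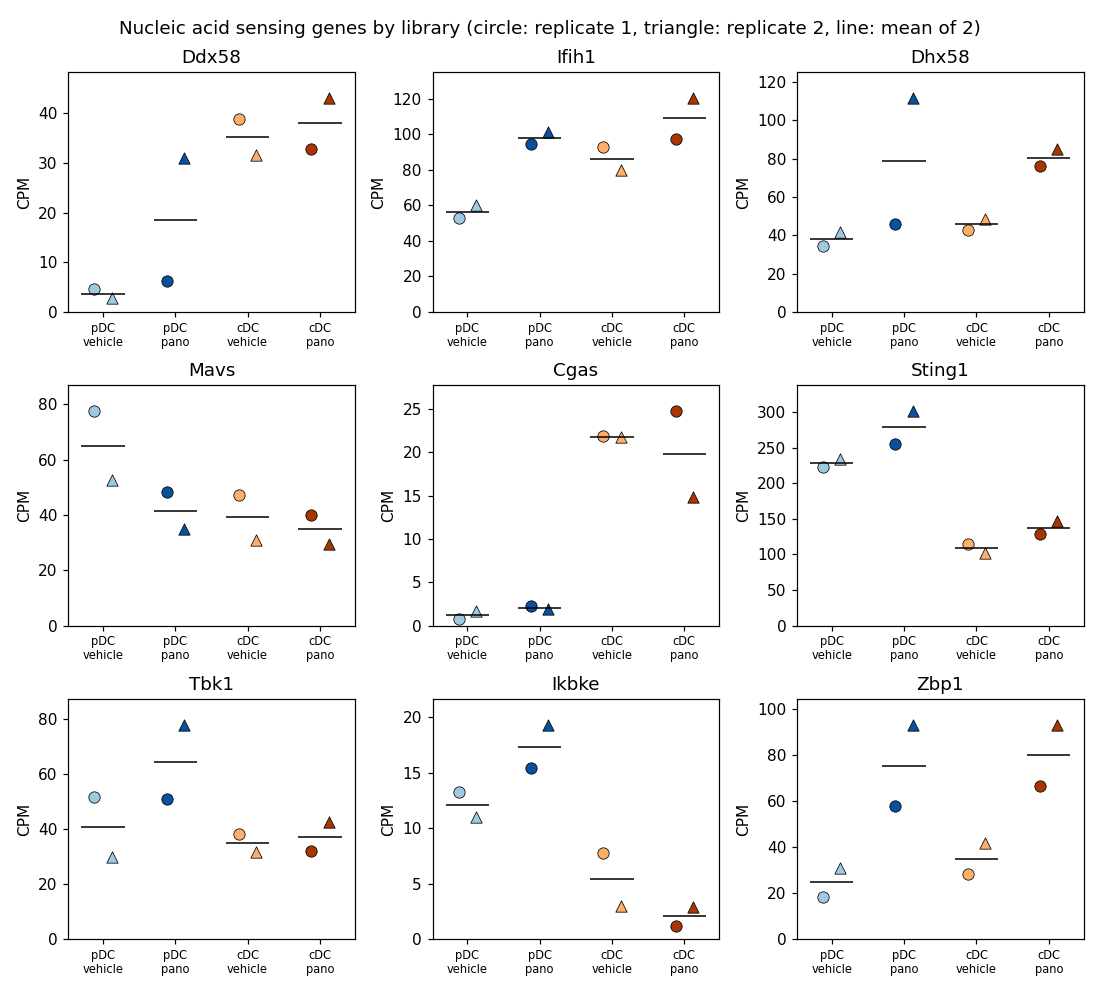
CPM of the 9 genes in each library, with 1 panel per gene, a linear axis from 0 and a line at the mean of the 2 replicates (circle: replicate 1, triangle: replicate 2; pano: panobinostat). Cgas and Sting1 separate pDC from cDC in opposite directions, and for Ddx58, Dhx58 and Tbk1 the second panobinostat pDC library lies far above the first.

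The same comparison under panobinostat, in other libraries, gave 3 called members of 9, 2 higher in pDC and 1 lower, where 18% of all tested genes were called, 7.76% higher and 10.2% lower. The same 3 had an unadjusted p below 0.05, as had 34.8% of all tested genes. Cgas stood at 2.23 and 1.86 CPM in pDC and at 24.7 and 14.8 CPM in cDC, a log2 fold change of -3.27 ± 0.65 (SE; n = 2; edgeR adjusted p = 0.0228). Sting1 stood at 256 and 301 CPM in pDC and at 128 and 147 CPM in cDC, a log2 fold change of 1.02 ± 0.17 (SE; n = 2; edgeR adjusted p = 0.0152). Ikbke, whose product phosphorylates the interferon regulatory factors, stood at 15.4 and 19.3 CPM in pDC and at 1.21 and 2.88 CPM in cDC. Its pDC libraries lay well above its cDC libraries, with a log2 fold change of 3.08 ± 0.77 (SE; n = 2; edgeR adjusted p = 0.0418). It ran from 2.58 without panobinostat cDC replicate 1 to 3.83 without panobinostat cDC replicate 2. The pDC libraries lay wholly above the cDC libraries for 3 members (Sting1, Tbk1, Ikbke) and wholly below for 2 (Cgas, Ddx58), as they did for 24.7% and 38% of all tested genes.

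The calls for Cgas and Sting1 under panobinostat were lost without vehicle cDC replicate 1 or 2 and without panobinostat cDC replicate 1 or 2 (edgeR adjusted p of 0.0784 to 0.167 and 0.0509 to 0.152). Ikbke lost its call in those fits and without vehicle pDC replicate 1 or 2 (0.0819 to 0.259), and also with the replicate number as a block (log2 fold change 3.08, edgeR adjusted p = 0.066). In the 4 panobinostat libraries alone none of the 9 was called. Without panobinostat pDC replicate 2, where 36.1% of all tested genes were called, there were 5 calls: the log2 fold changes were -2.68 for Ddx58 (edgeR adjusted p = 0.0046) and -0.87 for Dhx58 (edgeR adjusted p = 0.0232), beside Cgas, Sting1 and Ikbke. With both libraries Ddx58 stood at 6.15 and 30.9 CPM in panobinostat pDC and 32.7 and 43.1 CPM in panobinostat cDC, and was not called (log2 fold change -1.04 ± 0.75, SE, n = 2). Tbk1 was at 50.8 and 77.8 CPM in pDC and 31.9 and 42.5 CPM in cDC. Its groups did not overlap and it was not called (edgeR adjusted p = 0.202), except without panobinostat pDC replicate 1 (0.0377, in a fit that called 65.9% of all tested genes).

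**Figure D3:**
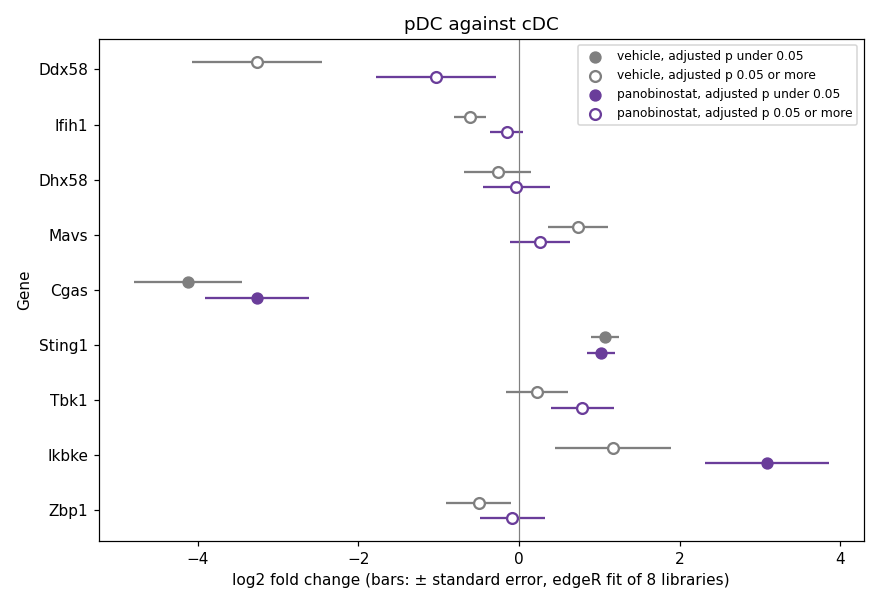
Log2 fold change of pDC against cDC for each gene, with vehicle (grey) and with panobinostat (purple); bars are ± standard error and filled points have an edgeR adjusted p below 0.05. Cgas lies at -4.12 and -3.27 and Sting1 at 1.07 and 1.02, while Ikbke is filled only for panobinostat.

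The effect of panobinostat in pDC was measured next. Of the 9 genes, 8 had log2 fold changes above 0, with Ddx58, Zbp1 and Dhx58 the largest, and Mavs had the only one below 0. None was called by edgeR, where 0.0913% of all tested genes were called, 0.014% higher and 0.0773% lower. Of the members 4 had an unadjusted p below 0.05, against 14.9% of all tested genes. Limma-voom called none of the members, while DESeq2 called Ifih1 and Zbp1 (adjusted p of 0.0102 and 0.0104). DESeq2 called 6.42% of all tested genes in this comparison. The treated libraries lay wholly above the vehicle libraries for 7 members, which 15.7% of all tested genes did, and below for 1, which 26.5% did. The median log2 fold change of the 9 was 0.72 and that of all tested genes -0.14, which became -0.28 with scaling by library size alone. This comparison uses the same vehicle pDC libraries as the vehicle comparison of pDC with cDC.

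Zbp1 had 364 and 572 reads in vehicle pDC, or 18.4 and 30.9 CPM, and 1165 and 999 reads in panobinostat pDC, or 57.8 and 92.8 CPM. Both treated libraries lay above both vehicle libraries, with a log2 fold change of 1.61 ± 0.42 (SE; n = 2; edgeR unadjusted p = 0.00746, adjusted p = 0.2). Replicates of the same number were treated as pairs on the strength of their shared deviations across genes. Within those pairs the fold for Zbp1 was 3.15 and 3.00. With the replicate number as a block its log2 fold change was 1.62 ± 0.22 (SE; n = 2; edgeR unadjusted p = 0.000581, adjusted p = 0.129). Ifih1 stood at 52.7 and 60.3 CPM with vehicle and at 94.5 and 101 CPM with panobinostat, and the folds within pairs were 1.79 and 1.68. Its log2 fold change was 0.79 ± 0.20 (SE; n = 2; edgeR unadjusted p = 0.00728, adjusted p = 0.199). For both genes the pairs gave similar folds. Without panobinostat pDC replicate 2 the log2 fold changes were 1.17 for Zbp1 and 0.69 for Ifih1. Without replicate 1 they were 1.90 and 0.83.

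Ddx58 and Dhx58 depended more than Zbp1 and Ifih1 on which treated library was used. Ddx58 stood at 4.59 and 2.76 CPM with vehicle and at 6.15 and 30.9 CPM with panobinostat, a log2 fold change of 2.33 ± 0.78 (SE; n = 2; edgeR adjusted p = 0.266). The within-pair fold was 1.34 for replicate 1 and 11.2 for replicate 2. Without panobinostat pDC replicate 2 the log2 fold change was 0.69, and without replicate 1 it was 3.06 (edgeR adjusted p of 0.301 and 0.00085). Dhx58 stood at 34.6 and 41.6 CPM with vehicle and at 45.9 and 112 CPM with panobinostat, with a log2 fold change of 1.05 ± 0.42 (SE; n = 2; edgeR adjusted p = 0.323). It was 0.21 without panobinostat pDC replicate 2 and 1.55 without replicate 1 (edgeR adjusted p of 0.58 and 0.00123). Without panobinostat pDC replicate 1, Ddx58, Ifih1, Dhx58 and Zbp1 were called, and without replicate 2 none was. Over all tested genes those fits called 8227 (55.3%) and 719 (4.78%), against 13 with both libraries. In each of these fits 1 treated pDC library remained, and its spread was assumed to be that of the other groups. The summed NK markers and the summed monocyte and neutrophil markers were also higher in the panobinostat pDC libraries than in vehicle pDC. Over the monocyte and neutrophil genes the mean log2 of CPM plus 1 was level, at 1.95 against 1.94. The part of these markers in the values was not tested.

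None of the adaptors, the kinases or Cgas had an unadjusted p below 0.05 in pDC. Mavs stood at 77.5 and 52.6 CPM with vehicle and at 48.4 and 34.7 CPM with panobinostat, and its within-pair folds were 0.625 and 0.66. Its log2 fold change was -0.65 ± 0.37 (SE; n = 2; edgeR adjusted p = 0.449), and both treated libraries lay below both vehicle libraries. Sting1 stood at 222 and 234 CPM with vehicle and at 256 and 301 CPM with panobinostat, a log2 fold change of 0.29 ± 0.17 (SE; n = 2; edgeR adjusted p = 0.46). Tbk1 stood at 51.4 and 29.8 CPM and at 50.8 and 77.8 CPM, which overlapped, and its within-pair folds were 0.987 and 2.61. Ikbke, at 13.2 and 11.0 CPM against 15.4 and 19.3 CPM, and Cgas, at 0.757 and 1.73 CPM against 2.23 and 1.86 CPM, did not overlap between the groups but had standard errors close to or above their log2 fold changes of 0.52 and 0.72.

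**Figure D4:**
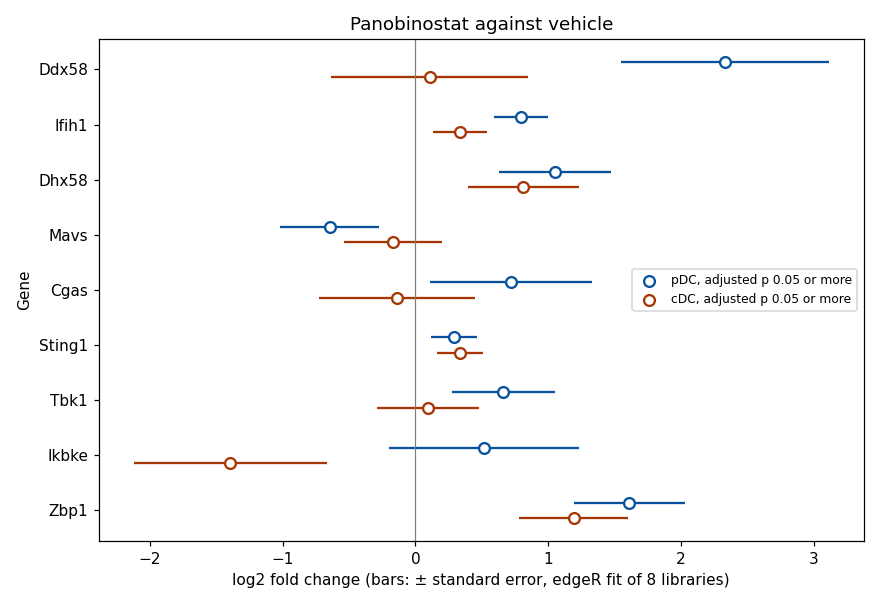
Log2 fold change of panobinostat against vehicle for each gene in pDC (blue) and cDC (brown); bars are ± standard error, and no gene has an edgeR adjusted p below 0.05. Zbp1 lies at 1.61 and 1.19, Ddx58 at 2.33 in pDC and 0.11 in cDC (-0.04 with library size scaling), and Ikbke at 0.52 and -1.39.

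In cDC, panobinostat likewise gave no call among the 9. By edgeR 0% of all tested genes were called there, with 206 genes (1.45%), and of the members Zbp1, at an unadjusted p below 0.05, while DESeq2 called 15 genes and limma-voom 0, none of them a member. Of the members, 6 had log2 fold changes above 0 and the median was 0.11, against 0.00 for all tested genes (-0.13 with scaling by library size alone). Both treated libraries lay above both vehicle libraries for 4 members, Zbp1, Dhx58, Ifih1 and Sting1, and below for Ikbke, where 22.2% and 18.8% of all tested genes did so.

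Zbp1 had 608 and 900 reads in vehicle cDC, or 28.3 and 41.6 CPM, and 1382 and 1713 reads in panobinostat cDC, or 66.6 and 93.1 CPM. Its log2 fold change was 1.19 ± 0.41 (SE; n = 2; edgeR unadjusted p = 0.0258, adjusted p = 1), and within pairs the fold was 2.35 and 2.24. With the replicate block it was 1.20 ± 0.21 (SE; n = 2; edgeR unadjusted p = 0.00222, adjusted p = 1). All 4 treated libraries, pDC and cDC, had more Zbp1 transcript than all 4 vehicle libraries, though edgeR called Zbp1 in neither cell type. The share of all tested genes with that pattern was not counted. NK markers summed to 145 to 183 CPM in vehicle cDC and to 209 to 401 CPM in panobinostat cDC. Their part in the Zbp1 values was not tested. Dhx58 stood at 43.0 and 48.8 CPM with vehicle and at 76.1 and 85.1 CPM with panobinostat, and the within-pair folds were 1.77 and 1.75. Its log2 fold change was 0.81 ± 0.42 (SE; n = 2; edgeR adjusted p = 1), or 0.82 ± 0.35 with the block. Ifih1 was at 92.6 and 79.8 CPM against 97.4 and 121 CPM, and Sting1 at 115 and 103 CPM against 128 and 147 CPM. Ddx58 overlapped between treated and vehicle cDC, at 38.8 and 31.7 CPM against 32.7 and 43.1 CPM. So did Mavs, Cgas and Tbk1, with log2 fold changes of -0.17 ± 0.37, -0.14 ± 0.59 and 0.09 ± 0.38 (SE, n = 2). With scaling by library size the values of Ddx58 and Tbk1, 0.11 and 0.09, became -0.04 and -0.05.

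Ikbke had the lowest log2 fold change of the 9 in cDC, -1.39 ± 0.73 (SE; n = 2; edgeR adjusted p = 1). It had 167 and 64 reads with vehicle, or 7.78 and 2.95 CPM, and 25 and 53 reads with panobinostat, or 1.21 and 2.88 CPM. The value rested on the first pair, where the fold was 0.155, while the second pair gave 0.974. Over fits that left out 1 library it ran from -2.15 to -0.52.

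Whether the effect of the drug differed between pDC and cDC was tested as an interaction. None of the 9 was called, where 0.00702% of all tested genes were called, and none had an unadjusted p below 0.05, against 7.77% of all tested genes; limma-voom and DESeq2 called none of the 9 either. The interaction was 2.22 ± 1.06 for Ddx58 and 1.91 ± 1.02 for Ikbke (SE; n = 2; edgeR adjusted p of 0.706 and 0.735). For Zbp1 it was 0.42 ± 0.57, for Ifih1 0.45 ± 0.29 and for Sting1 -0.05 ± 0.24 (SE, n = 2), or 0.01 for Sting1 with RLE scaling. Ddx58 passed without panobinostat pDC replicate 1 (2.95, edgeR adjusted p = 0.00325, in a fit that called 43.4% of all tested genes) and was 0.60 without replicate 2 (0.545). Ikbke ran from 1.03 without vehicle cDC replicate 1 to 2.65 without panobinostat cDC replicate 2.

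**Figure D5:**
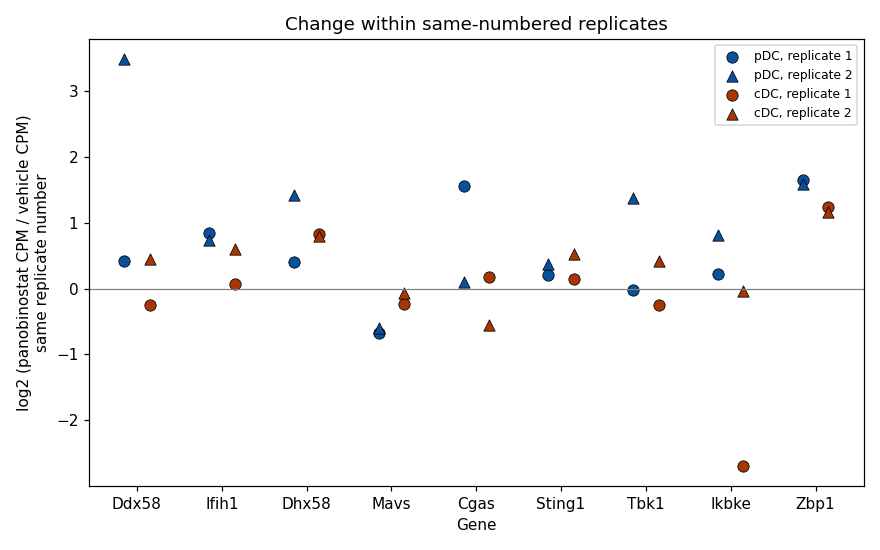
Log2 ratio of panobinostat to vehicle CPM between replicates of the same number for each gene (blue: pDC, brown: cDC; circles: replicate 1, triangles: replicate 2). The 4 points of Zbp1 lie between 1.16 and 1.65, whereas those of Ddx58 run from -0.25 to 3.49.

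Other genes of these relays were described in 7 lists with 88 distinct genes, all of which were tested. Between pDC and cDC in vehicle, 6 of the 88 were called higher and 5 lower, where 5.01% and 4.71% of all tested genes were; the median log2 fold change was -0.08, and 0.02 for all tested genes. Under panobinostat 9 were called higher and 9 lower, where 7.76% and 10.2% of all tested genes were, and the medians were -0.25 and -0.18. Without panobinostat pDC replicate 2 vehicle gave 14 higher and 16 lower, and panobinostat 12 higher and 23 lower, in fits that called 36.1% of all tested genes in each comparison. In pDC, in cDC and for the interaction, 0 of the 88 were called for the drug. Without that library the drug comparison in pDC had 1 gene called higher and 5 lower, where 4.78% of all tested genes were called.

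Of 14 cofactors and regulators of the RIG-I-like receptors, 1 was called in vehicle, where 9.73% of all tested genes were called. That gene, Trim25, a ubiquitin ligase for RIG-I, was higher in pDC (91.0 ± 17.8 against 29.9 ± 3.11 CPM, SD, n = 2; log2 fold change 1.61 ± 0.27, edgeR adjusted p = 0.0176). Among 9 effectors of double-stranded RNA, Oasl2, an oligoadenylate synthetase-like gene, was higher in pDC with panobinostat (edgeR adjusted p = 0.0493), at 200 ± 82.3 against 73.9 ± 25.4 CPM (SD, n = 2). In that comparison 18% of all tested genes were called. Against vehicle, Oasl2 had log2 fold changes of 1.27 in pDC and 1.42 in cDC, neither called.

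A list of 13 genes was drawn up around the handling of cGAS, its product or STING. In it G3bp1, a stress granule protein that binds cGAS, was lower in pDC with vehicle and with panobinostat (log2 fold changes -0.70 ± 0.15 and -1.14 ± 0.15, edgeR adjusted p of 0.0393 and 0.00737). Hmgb1, a chromatin protein gene with many processed copies that may share its reads, and Ywhae were higher in pDC with panobinostat (log2 fold changes 1.41 ± 0.23 and 0.84 ± 0.16, edgeR adjusted p of 0.0134 and 0.0213). The link of Ywhae to cGAS or STING was not tested. Of 14 genes that clear nucleic acid, Trex1, the cytosolic DNA exonuclease, was higher in pDC and Dnase1l3, a secreted DNase, was lower. Trex1 stood at 247 ± 78.7 CPM in vehicle pDC and 85.9 ± 12.2 CPM in vehicle cDC, and Dnase1l3 at 41.1 ± 7.07 and 1112 ± 367 CPM (SD, n = 2; log2 fold changes 1.53 and -4.76, edgeR adjusted p of 0.037 and 0.00315). Dnase1l3 was called under all 16 alternatives in both treatments, and Trex1 under 10 with vehicle and 11 with panobinostat. Beside low Cgas, pDC had low Dnase1l3 and more Trex1 and Sting1 transcript than cDC. Of the 14 clearance genes only 1 was called higher and 1 lower in each treatment, and their median log2 fold change with vehicle was -0.0002. Of all tested genes 5.01% were called higher and 4.71% lower in pDC with vehicle, and 7.76% and 10.2% with panobinostat.

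Of 18 adaptors, substrates and transcription factors around the kinases, Irf7 was higher in vehicle pDC (1104 ± 385 against 165 ± 24.5 CPM, SD, n = 2; log2 fold change 2.74 ± 0.35, edgeR adjusted p = 0.00744). Traf2 and Tbkbp1 were lower, the latter being near 0 in pDC (1 library at 0) and at most 3.65 CPM in cDC (edgeR adjusted p of 0.0394 and 0.0382), and Tbkbp1 lost its call with the block (0.0702). With panobinostat 2 of the 18 were called higher in pDC and 5 lower, where 7.76% and 10.2% of all tested genes were. The smallest p values were those of Irf5, an interferon regulatory factor, and Nfkb1, a subunit gene of NF-kappa-B, both lower in pDC (log2 fold changes -1.46 ± 0.18 and -1.33 ± 0.18, edgeR adjusted p of 0.00549 and 0.00785). Of 7 genes of the ZBP1 death pathway, Cflar, an inhibitor of caspase-8, was lower in pDC with vehicle and with panobinostat (edgeR adjusted p of 0.0494 and 0.0491), and Casp6, a caspase gene, was lower with panobinostat (0.0398). With the replicate number as a block Cflar lost both calls (edgeR adjusted p of 0.0759 and 0.0691). The other 5 genes of that list were called in no comparison. Of 15 nuclear and inflammasome DNA sensors, Ifi203 and Xrcc6, a DNA end-binding subunit, were higher in pDC in both treatments (log2 fold changes with vehicle 2.24 ± 0.25 and 1.21 ± 0.18, edgeR adjusted p of 0.00439 and 0.0119). Ifi203 has near copies in its gene cluster, and its reads are uncertain for that reason. All of these list calls other than those of Dnase1l3 were lost in at least 1 of the alternatives. Beside the calls of the ZBP1 and DNA sensor lists, 9.73% of all tested genes were called with vehicle and 18% with panobinostat.

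The genes most like each member were found by the Pearson correlation of log2 CPM over the 8 libraries, among the 8188 genes whose log2 CPM averaged 3 or more. They describe the pattern only, since the 8 points share 4 groups and depth. Zbp1 was closest to Tgtp1 and Tgtp2 (r = 0.979 and 0.963), 2 near-identical interferon-inducible GTPase genes whose reads may be split between them. Sting1 was closest to Mta3 and Tmem80 (r = 0.993 and 0.99) and Ddx58 to H2bc23 and Fam111a (r = 0.991 and 0.99). Ifih1 was closest to Ms4a4b and Emb (r = 0.987 and 0.968), Dhx58 to Plekho1 and Nop16 (0.968 and 0.963), Mavs to Pitrm1 and Dync1li2 (0.968 and 0.944) and Tbk1 to Dffa and Sec24a (0.97 and 0.958). Cgas and Ikbke were below the minimum level for this search.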

How the data were processed

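Libraries came from a low-input NEBNext kit after Trizol isolation of RNA, per the labels' protocols. The submitters' processing notes list bcl2fastq (2.17.1.14), FastQC (0.11.6), cutadapt (2.1), HISAT2 (2.1.0), featureCounts from Subread (2.0.0) and limma, with genome build mm10. Strand setting, annotation and treatment of multi-mapped reads are absent from the sources used here. The authors deposited whole-number read counts per Entrez gene ID, with 1 column per library. Columns named D5W were taken as vehicle and those named LBH as panobinostat. RefSeq symbols (GRCm38.p6, the assembly behind mm10) matched 25275 of 27179 IDs.

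Low genes were removed with edgeR's filterByExpr (count minimum 10, total minimum 15; edgeR 4.0.16 under R 4.3.3). Counts were TMM-scaled and fitted without a block in 1 quasi-likelihood model of all 4 groups, which share the estimate of spread, with Benjamini-Hochberg adjustment and a threshold of 0.05. Standard errors are the log2 fold change over the root of the quasi-likelihood F. Log2 CPM used a prior count of 2, and exon lengths are unions of GENCODE M21 exons. Alternatives were RLE and library size scaling, no filter, a count minimum of 50, DESeq2 (1.42.0), limma-voom (limma 3.58.1), the replicate number as a block, each library left out and the 4 compared libraries alone. The replicate numbers come from the labels, which do not say which animals share one. Deviations of same-numbered libraries from their group means correlated across genes at 0.146 to 0.489 in all 6 pairs of groups, and same-numbered libraries were treated as pairs on that basis. The fitting steps were run on simulated counts with the same spread for every gene and no outlying library. That run therefore cannot show how the fit behaves with the uneven panobinostat pDC libraries.

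The members and lists were chosen with earlier results of these data known. Every member is named, and of each list up to 4 called genes with the smallest p in a comparison. A result of the lists is not reported here, though the list counts include it. In the pattern search, members whose log2 CPM averages 3 or more have their 2 most similar genes named.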

Additional observations from a re-analysis of the deposited data

How the results depend on the processing

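The count of called members for panobinostat in cDC was 0 in all 16 alternatives. DESeq2 called 2 members for panobinostat in pDC (0 as reported) and 4 for pDC against cDC in vehicle (2 as reported), where it called 6.42% and 20.2% of all tested genes, and the 4 panobinostat libraries alone gave 0 in place of 3, with 1.21% of all genes tested there called. Leaving out 1 library at a time gave 0 to 4 calls for panobinostat in pDC, 0 to 1 for the interaction, 0 to 4 for pDC against cDC in vehicle and 0 to 5 with panobinostat. The largest of these counts came from fits without a panobinostat pDC library. Those fits also called far larger shares of all tested genes than fits without a library of another group. The shares are given above with those fits. The largest counts alone therefore do not set the members apart from other genes. With the replicate block there were 2 calls in place of 3 for pDC against cDC with panobinostat, where Ikbke was lost. In that comparison the block fit called 16.2% of all tested genes, against 18% as reported. The block changed no other call of a member. Over all genes, panobinostat in pDC had 13 calls, and 2 with RLE, 68 without a filter, 914 by DESeq2 and 0 by limma-voom, with the block or in 4 libraries alone.

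Reversed signs occurred only among values not called as reported. For panobinostat in cDC, library size scaling gave -0.041 for Ddx58 and -0.053 for Tbk1, and leaving out 1 library gave -0.10 to 0.30 for Ddx58, -0.44 to 0.18 for Mavs, -0.55 to 0.19 for Cgas and -0.12 to 0.29 for Tbk1. For the interaction, limma-voom gave -0.013 for Dhx58, RLE gave 0.0113 and DESeq2 0.0109 for Sting1, and leaving out 1 library gave -0.58 to 0.73 for Dhx58, -0.21 to 0.051 for Sting1 and -0.0054 to 0.82 for Zbp1. For pDC against cDC, leaving out 1 library gave -0.22 to 0.52 for Tbk1 in vehicle and, with panobinostat, -0.87 to 0.47 for Dhx58, -0.0062 to 0.49 for Mavs and -0.52 to 0.21 for Zbp1. The cause was not tested. With 2 libraries a group, and 1 in an arm when a library is left out, the spread is poorly known, and Cgas in pDC rests on 15 to 45 reads a library.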
